A study of Mus musculus with 28 samples.

Results

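Cytochrome P450 enzymes of families 1 to 4 were followed in mice that express human APOBEC3B (A3B), a cytosine deaminase, from a doxycycline (dox)-inducible transgene. The members were taken by gene symbol, as the genes named Cyp1 to Cyp4 with a subfamily letter and a number, leaving out pseudogenes and the pair Cyp4a10 and Cyp4a14. The rule gave 80 genes over both tables of this series. Of these, 78 were among the 35858 gene symbols of the liver and pancreas samples called set 2, and 79 were among the 24845 symbols of the liver and lung samples called set 1. Family 1 had 3 members, family 2 had 49, family 3 had 9 and family 4 had 19, in 21 subfamilies, of which Cyp2c with 15 genes was the biggest. Cyp4x1os, an antisense RNA gene, was taken in by its symbol. Cyp2j7 was listed in set 2 alone, and Cyp2d13 and Cyp4x1os in set 1 alone.

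These enzymes sit in the membrane of the endoplasmic reticulum, where they hold a heme group and receive electrons from NADPH P450 reductase, encoded by Por, and in part from cytochrome b5. The liver is their main site, and there the Cyp1, Cyp2 and Cyp3 families oxidise drugs, pollutants, steroids and bile acids, while many Cyp2c, Cyp2j and Cyp4 enzymes act on fatty acids such as arachidonic acid. Their transcription in hepatocytes is set by ligand sensors (Ahr, the receptors Car, Pxr and Ppara), by liver transcription factors and, in rodents, by the sex-specific pattern of growth hormone.

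A feature that the rule did not use is the heme-binding loop, in which a cysteine holds the heme iron. Codons for Phe, Gly, Arg, Cys and Gly in the usual spacing of this loop were found in 75 of the 78 members that had a coding sequence in GENCODE M21, as a run of 30 bases. The loop is shown here for 7 members that were lower in A3B liver in the comparison of set 2, to set the subfamilies side by side. The sequences come from GENCODE M21 transcripts (GRCm38, minus strand, 5′ to 3′), the capitals mark the cysteine codon, and where the run crosses an exon junction the coordinates are its outer ends.
Cyp1a2, chr9:57677396-57677425: ttcggcttgggaaagcgccggTGCattggg
Cyp2c23, chr19:44005603-44007033 across a junction: ttctccctcgggaagcgatccTGTgttggc
Cyp2c70, chr19:40153738-40156732 across a junction: ttctcagcaggaagaagagctTGTattgga
Cyp2d40, chr15:82760065-82760194 across a junction: ttctcagcaggccgtcgagcaTGTctgggt
Cyp2j5, chr4:96629627-96630720 across a junction: ttctcaatgggaaaaagagctTGTcttgga
Cyp3a11, chr5:145858805-145858834: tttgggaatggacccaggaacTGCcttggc
Cyp4f14, chr17:32905666-32906065 across a junction: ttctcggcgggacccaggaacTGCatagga

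A3B mice were 4-week-old adults that carried TetO-A3B-tGFP in the ColA1 locus and the ubiquitous driver CAGs-rtTA3, and their food held 625 ppm dox. Set 2 comprised livers of 6 A3B mice (44, 48, 49, 125, 137 and 153) and pancreases of 6 A3B mice (44, 49, 53, 125, 137 and 153), each set against control mice 45 and 168, which had the transgene without the driver. Every mouse of set 2 is labelled with 10 days of dox, but the study elsewhere describes its control animals for these tissues as without dox, so dox itself may differ between the groups. Set 1 comprised livers of A3B mice 23 and 28 (14 days) and 70 (10 days) with controls 11, 91 and 92, and lungs of A3B mice 69, 70 and 74 (10 days) with controls 87, 88 and 91, all controls being labelled with 15 days. The groups are those of the sample titles. The genotype labels go against the titles for A3B pancreases 44 and 137, which they give as carrying the transgene alone, and for control pancreases 45 and 168, which they give as carrying both. Control liver 11 is labelled as carrying both transgenes and control lung 87 as carrying the driver alone. The study's list of mice gives the title's group in these cases, has mouse 11 off dox and gives other days for some set 1 controls. The mice are separate animals, and 5 A3B mice and both controls gave both liver and pancreas, while mouse 70 and control 91 gave both liver and lung. Driver and transgene act in all tissues, so the effect of A3B on hepatocytes and on other cells cannot be told apart, nor, in bulk tissue, can fewer cells of a type from less RNA per cell.

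Set 2 libraries held 65161064 to 118976013 estimated counts. For set 1 the depth is unknown, as its values are TPM, a level scaled for gene length and for the total of its library. Human A3B was listed at 705 to 1705 TPM in the A3B livers of set 1, at 90.6 to 281 in the A3B lungs and at no more than 0.526 in its controls. Summed RNA of 4 Y-linked genes (Ddx3y, Kdm5d, Eif2s3y and Uty) was 35.5 to 67.8 TPM in A3B livers 125, 137 and 153 and control liver 168, and 0.288 to 4.09 in A3B livers 44, 48 and 49 and control liver 45. In set 1, only control liver 11 had Y-linked RNA (33.6 TPM). Several members are sex-biased in mouse liver, so these values are set beside those genes below.

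P450 RNA was much lower in the livers of A3B mice of set 2. Summed over all members, it was 3222, 7461 and 9566 TPM (lowest, median and highest of 6 A3B livers), against 19142 and 19750 TPM in the controls, and the control mean was 2.81 times the A3B mean. Every A3B liver was below both controls. Of 66 members with enough counts to test, edgeR called 11 lower and 0 higher at an adjusted p under 0.05, while over all 17365 genes tested 2.41% were lower and 1.26% were higher. At an unadjusted p under 0.05 there were 26 members with negative and 3 with positive log2 fold changes, against 9.88% and 13.1% of all genes. DESeq2 called 19 lower and 2 higher, against 6.43% and 7.63% of the genes it tested. With library totals in place of TMM scaling edgeR called 10 members lower and 0 higher, while the split over all genes turned from 218 higher and 418 lower to 879 higher and 241 lower. In 20 members every A3B liver was below both controls, against 5.42% of all genes tested. The log2 fold change was negative in 53 members and positive in 13, with a median of −1.22 against 0.21 for all genes. The count of 11 rested in part on single libraries, being 6 without A3B liver 44, 7 without 137, 19 without 49, and 5 without control 45 or without control 168, where the lone control is assumed to vary like the other group. Lower calls over all genes moved in the same fits, from 418 to 173, 133, 944, 64 and 70. The summed level of 7 hepatocyte markers also differed, at 49732 to 112741 TPM in A3B livers and at 112754 and 170525 in controls, although edgeR called 0 of the 7 lower (adjusted p under 0.05). Alb was lower in every A3B liver (19353 to 44124 TPM against 107806 and 54669), as was Ttr. The other markers overlapped between groups, such as Hpx with 2846 to 12367 TPM against 3393 and 3213. The part of these marker levels in the P450 result was not tested.

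Family 1 showed the widest gap. Cyp1a2, which oxidises caffeine and aromatic amines and is a classical target of Ahr, lies at chr9:57676937-57683703 (GENCODE M21, GRCm38) and is one of the abundant P450s of hepatocytes. Its level was 3.21, 7.69 and 31.5 TPM (lowest, median and highest) in A3B livers and 652 and 644 TPM in control livers. No A3B liver came near a control. The log2 fold change was −5.99 ± 0.80 (SE, edgeR adjusted p = 0.00725), and it was called in each of the 8 fits that left out 1 library. Cyp1b1, which acts mainly outside the liver, stayed under 1 TPM, with 0.159 to 0.953 in A3B livers and 0.0679 and 0.147 in controls (log2 fold change 2.11, adjusted p = 0.141 by edgeR).

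In the Cyp2c subfamily, 12 of 13 tested members had negative log2 fold changes, and 3 were called lower. The summed Cyp2c level was 212, 803 and 1216 TPM in A3B livers and 3548 and 4010 TPM in controls, a 4.67-fold gap between the means without overlap. Cyp2c23 (chr19:44005022-44029208), an arachidonic acid epoxygenase, was at 4.36, 8.31 and 24.5 TPM in A3B livers and at 316 and 246 TPM in controls, with a log2 fold change of −4.79 ± 0.71 (edgeR, adjusted p = 0.01003). Cyp2c70 (chr19:40153353-40187333), which makes the muricholic acids of rodent bile, was at 30.5, 47.2 and 124 TPM in A3B livers and at 488 and 444 TPM in controls, with a log2 fold change of −3.31 ± 0.46 (edgeR, adjusted p = 0.00826). Both genes were separated from controls in every A3B liver, and none of their 31-base words occurs in transcripts of another gene, so their counts are not split with a paralog. Cyp2c70 was called in all 8 fits without 1 library, and Cyp2c23 was not called without control 45 or without control 168. Cyp2c68 (chr19:39688834-39741054) was at 88.7, 122 and 185 TPM in A3B livers and at 262 and 373 TPM in controls (log2 fold change −1.65 ± 0.39, edgeR adjusted p = 0.0490). That call is the weakest of the 11, as it was kept in 2 of 8 fits without 1 library, and only 38.0% of its 31-base words are its own, with 53.6% shared with Cyp2c40.

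Other Cyp2c genes that are high in control liver did not pass the test, although their A3B livers were low. Cyp2c29 was at 17.8, 186 and 361 TPM in A3B livers and at 716 and 957 TPM in controls (log2 fold change −2.65, edgeR adjusted p = 0.0641). Cyp2c50 was at 1.74, 60.02 and 82.5 TPM against 405 and 488 TPM (log2 fold change −3.38, edgeR adjusted p = 0.0611). In both, no A3B liver reached the lower control, and A3B liver 49 was the lowest of all. Cyp2c38, an arachidonic acid epoxygenase, was the exception with a positive value: 8.06, 83.5 and 105 TPM in A3B livers against 50.2 and 19.9 TPM in controls, groups that overlapped (log2 fold change 0.76, edgeR adjusted p = 0.591).

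The Cyp2d, Cyp2g and Cyp2j subfamilies each had 1 called member. Cyp2d40 (chr15:82759833-82764183), of the expanded mouse Cyp2d cluster, had the smallest p of all members. It was at 3.38, 4.001 and 5.91 TPM in A3B livers and at 88.6 and 61.9 TPM in controls, with a log2 fold change of −4.45 ± 0.30 (edgeR, adjusted p = 0.000741). The A3B livers lay close together here, unlike for most members. The other Cyp2d genes were less separated, and abundant Cyp2d26 overlapped between groups, at 262, 671 and 1122 TPM in A3B livers and at 887 and 595 TPM in controls (log2 fold change −0.49, edgeR adjusted p = 0.577). Cyp2j5 (chr4:96628773-96664154), an arachidonic acid epoxygenase of liver and kidney, was at 14.9, 29.6 and 64.6 TPM in A3B livers and at 335 and 290 TPM in controls. Its log2 fold change was −3.63 ± 0.50 (edgeR, adjusted p = 0.00763), it was called in all 8 fits without 1 library, and the groups did not overlap. Cyp2g1 (chr7:26808892-26821205), best known from the olfactory mucosa, was at 0.191, 0.302 and 0.820 TPM in A3B livers and at 22.3 and 7.24 TPM in controls (log2 fold change −4.63 ± 0.74, edgeR adjusted p = 0.0142), and it was not called without control 45. Cyp2u1 (chr3:131288441-131303227), which hydroxylates long-chain fatty acids, was at 0.623, 0.825 and 1.56 TPM against 1.97 and 8.59 TPM (log2 fold change −2.69 ± 0.56, edgeR adjusted p = 0.0353). For Cyp2u1 the control livers differed more from each other than the lower one did from the A3B livers, and the call was kept in 4 of 8 fits without 1 library, being lost without A3B liver 44, 125 or 137 or control 168.

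Cyp2e1, the ethanol and acetaminophen oxidase, was the most abundant member in every control liver of set 2, and did not pass the test. Its level was 437, 1415 and 2710 TPM in A3B livers and 4846 and 6007 TPM in controls, without overlap (log2 fold change −2.18 ± 0.67, edgeR adjusted p = 0.0969). Cyp2f2, known for the oxidation of naphthalene, was at 49.1, 291 and 595 TPM against 1037 and 939 TPM, again without overlap (log2 fold change −2.15 ± 0.67, edgeR adjusted p = 0.101). Both were called lower when Y-linked RNA was a covariate, Cyp2e1 with an adjusted p of 0.0214 and Cyp2f2 with 0.0479 by edgeR. Cyp2c68 lost its call in that fit, and also with library totals and with limma on log2(TPM + 1). Cyp2r1, a vitamin D 25-hydroxylase, was at 1.82, 2.06 and 5.55 TPM against 6.40 and 8.91 TPM (log2 fold change −1.96 ± 0.48, edgeR adjusted p = 0.0548).

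All 9 Cyp3a genes tested had negative log2 fold changes, and their summed level was 485, 736 and 1087 TPM in A3B livers against 2870 and 3261 TPM in controls. Cyp3a11 (chr5:145854426-145879964), the main drug-metabolising Cyp3a of mouse liver and a target of Pxr, was called. It was at 119, 392 and 580 TPM in A3B livers and at 1236 and 2513 TPM in controls, with a log2 fold change of −2.78 ± 0.53 (edgeR, adjusted p = 0.0258). The groups did not overlap, but the call was lost without A3B liver 44, control 45 or control 168.

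Family 4 was divided. Cyp4f14 (chr17:32905070-32917342), a leukotriene B4 hydroxylase, was at 1.76, 18.5 and 49.8 TPM in A3B livers and at 375 and 190 TPM in controls, with a log2 fold change of −4.13 ± 0.79 (edgeR, adjusted p = 0.0267). Cyp4v3 (chr8:45304944-45333216), a fatty acid omega-hydroxylase, was at 19.7, 38.6 and 70.6 TPM against 103 and 137 TPM (log2 fold change −1.88 ± 0.40, edgeR adjusted p = 0.0367). These were the called members, and both lay under the controls in every A3B liver. Without control 45, control 168, A3B liver 44 or A3B liver 137 neither was called, and Cyp4f14 was also lost without 125. Cyp4f15 of the same subfamily overlapped between groups, at 20.4, 79.7 and 139 TPM in A3B livers against 105 and 72.3 TPM in controls (log2 fold change −0.59, edgeR adjusted p = 0.520). The Cyp4a genes, fatty acid omega-hydroxylases under Ppara, were divided too, with positive values for Cyp4a31 and Cyp4a32 and negative ones for Cyp4a12a (−1.39) and Cyp4a12b (−1.50). Cyp4a32 was at 60.6, 220 and 863 TPM in A3B livers and at 26.9 and 32.1 TPM in controls (log2 fold change 3.07 ± 1.08, edgeR adjusted p = 0.135). Cyp4a31 was at 28.1, 40.7 and 158 TPM against 12.02 and 17.5 TPM (log2 fold change 1.89 ± 0.73, edgeR adjusted p = 0.163). In both, every A3B liver exceeded both controls without a call, as for 24.3% of all genes tested, and 37.2% of the 31-base words of Cyp4a32 and 68.0% of those of Cyp4a31 are their own.

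**Figure D1:**
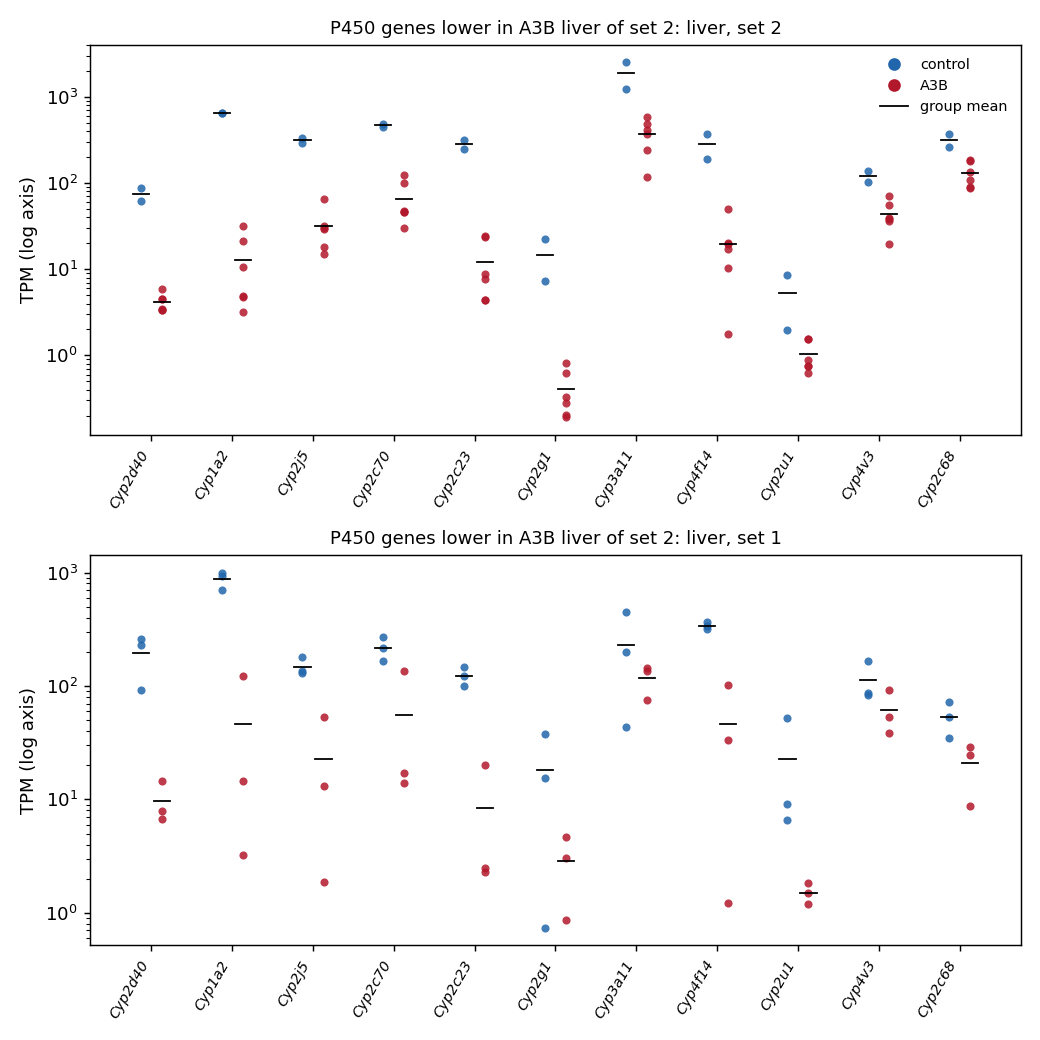
TPM (log axis) of the 11 members called lower in A3B liver of set 2, with 1 point per liver and a line at the group mean, in set 2 (6 A3B and 2 control livers, top) and in set 1 (3 A3B and 3 control livers, bottom). In set 2 the A3B points lie under both controls for each gene, as for Cyp1a2 with 3.21 to 31.5 TPM against 652 and 644, while in set 1 Cyp2g1, Cyp3a11 and Cyp4v3 overlap between groups and Cyp1a2 is at 3.26 to 122 TPM against 706 to 997.

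Several members are female-biased or male-biased in mouse liver, so they were read within the livers of like Y-linked RNA. With 1 control in each of these classes there is no test. Of 8 female-biased members, edgeR called 0 in the comparison of all livers and all 8 had negative log2 fold changes, and the same was true of 3 of 3 male-biased members. Cyp3a41a, a female-biased Cyp3a, was at 215, 164 and 10.8 TPM in A3B livers 44, 48 and 49 and at 1346 TPM in control 45, the control with little Y-linked RNA. Cyp2c69 was at 46.8, 38.0 and 2.42 TPM in these livers and at 745 TPM in control 45. Cyp2a4, a female-biased steroid hydroxylase, was at 349, 239 and 522 TPM against 1159 TPM. Each of the 3 genes was lower in all 3 of these A3B livers than in their control.

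Among livers with Y-linked RNA the male-biased members gave the same picture. Cyp2d9, a male-specific steroid hydroxylase, was at 440, 694 and 435 TPM in A3B livers 137, 125 and 153 and at 1454 TPM in control 168. Cyp4a12a, a male-specific arachidonic acid hydroxylase, was at 142, 116 and 198 TPM against 303 TPM. These 3 A3B livers also held more RNA of female-biased Cyp2b9 (5.86 to 18.8 TPM against 0.937) and of Cyp2a22 (18.2 to 30.6 TPM against 0.341) than control 168. Female-biased Cyp2b13 was also above that control in 137 and 153 (0.499 and 0.0838 TPM against 0.00716). In liver 125 and in control 168 it had about 1 estimated count each. Cyp2a4 was above the control in 137 and 153 too (31.1 and 6.30 TPM, 1.37 in 125, against 4.69). Cyp2c69 and Cyp3a16 went the other way, as Cyp2c69 was at 0.0352 to 0.352 TPM in the 3 A3B livers against 129 TPM in control 168, and Cyp3a16 at 0 to 0.0395 TPM against 0.196. Female-biased Cyp3a41a stayed at or under 0.122 TPM in these 3 A3B livers. Among livers with little Y-linked RNA, male-biased Cyp4a12a was at 25.8, 0.889 and 1.44 TPM in A3B livers 44, 48 and 49. In control 45 it was at 0.559 TPM. Cyp4a12b was at 1.62, 0.160 and 0.471 TPM in the same A3B livers against 0.0638, so both were higher than in their control. Cyp2d9 was above control 45 (51.1 TPM) in liver 44 alone, at 97.7, 24.4 and 34.4 TPM. Cyp3a41a shares 96.1% of its 31-base words with Cyp3a41b, so the split of reads between this pair is uncertain, as it is for Cyp4a12a and Cyp4a12b (37.8% and 37.1% unique).

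**Figure D2:**
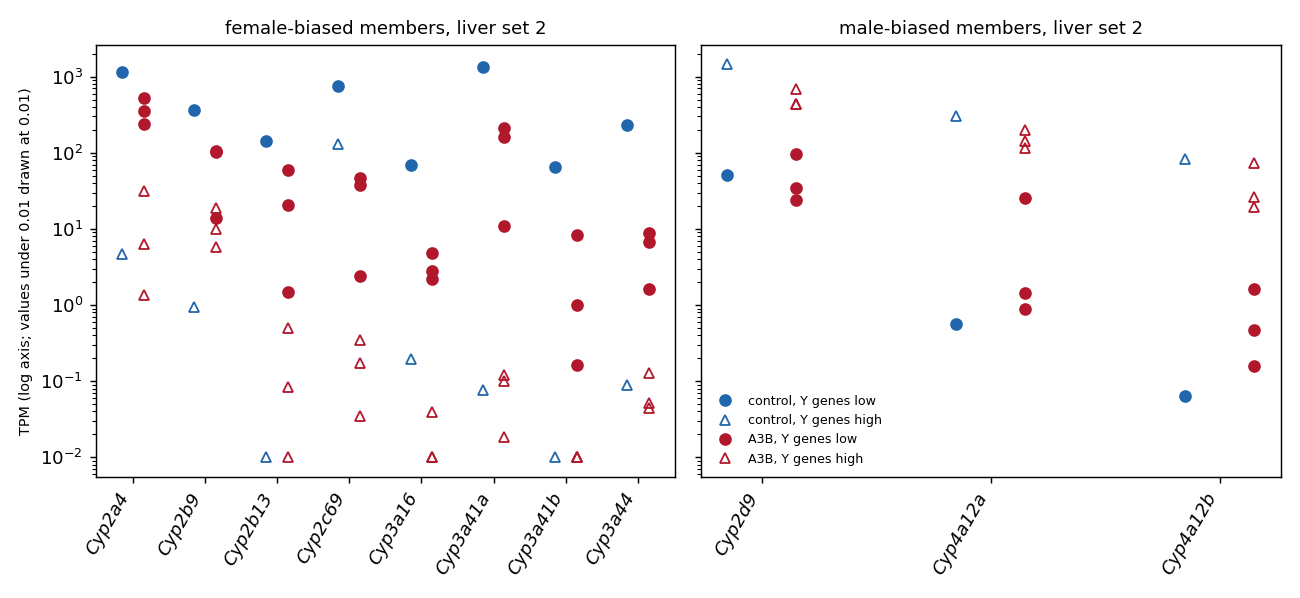
TPM (log axis, values under 0.01 drawn at 0.01) of 8 female-biased (left) and 3 male-biased (right) members in the 8 livers of set 2, with blue for controls, red for A3B, filled circles for livers with little Y-linked RNA and open triangles for livers with it. For female-biased genes the filled red points lie under the filled blue point, as for Cyp3a41a with 215, 164 and 10.8 TPM against 1346, and for male-biased genes the red triangles lie under the blue one, as for Cyp2d9 with 440, 694 and 435 TPM against 1454.

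The region before the start site was read for the members that were lower in liver. RefSeq gave a promoter (GRCm38.p6) for 66 members and for 8 of the 11 lower ones, with no entry for Cyp2c23, Cyp2g1 and Cyp2u1. In the 250 bases before the start, on either strand, TATAAA (the core of a TATA box) was present in 26 member promoters (39.4%) and in 13.0% of all 27025 promoters. It was in 5 of the 8 lower members, whose windows of 30 bases are shown on the gene's strand with the match in capitals, which reads TTTATA where it lies on the other strand.
Cyp1a2, chr9:57683667-57683696, minus strand: agtgggtggtgtTATAAAaggcccctcgtc
Cyp2c70, chr19:40187298-40187327, minus strand: tcggaaattgcaTTTATAgtcccttggaac
Cyp2d40, chr15:82764196-82764225, minus strand: cctggacactccTTTATAaggtggtaggat
Cyp2j5, chr4:96664230-96664259, minus strand: ccaaaacagttcTTTATAagtaagcaattt
Cyp3a11, chr5:145880071-145880100, minus strand: gcttgaatttctTATAAAaaccaagaactt

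The match began 29 bases before the start in Cyp1a2 and Cyp2c70, 91 in Cyp2d40, 128 in Cyp2j5 and 234 in Cyp3a11. Among motifs of liver regulators, GCGTG (the core bound by Ahr) was in 12 member promoters (18.2%, against 28.2% of all) and in 3 of the 8 lower ones. AGGTCA (the half-site of nuclear receptors) was in 16 (24.2%, against 13.8%) and in 3 of the 8, which were Cyp2c70, Cyp2j5 and Cyp3a11. TTGCNNAA (Cebp) was in 14 (21.2%, against 9.55%), GTTAAT (Hnf1) in 9 (13.6%, against 6.52%) and TTCNNNGAA (Stat5) in 4 (6.06%, against 7.18%). In the 8 lower members, TTGCNNAA was found in Cyp4f14 alone, GTTAAT in Cyp2c68 alone and TTCNNNGAA in 0. These are matches of letters in 1 window.

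Partners and regulators of the P450s were read in the same fits. Among 6 electron donors and membrane partners, 2 were lower in A3B liver of set 2. Cyb5b, the outer mitochondrial membrane cytochrome b5, was at 33.2 ± 9.03 TPM (SD, n = 6) against 123 ± 24.7 TPM (n = 2), with a log2 fold change of −2.27 (edgeR, adjusted p = 0.00496), and Cyb5r3, which reduces cytochrome b5, had a log2 fold change of −1.76 (edgeR, adjusted p = 0.0241). Por, the common reductase, was at 501 ± 316 TPM against 317 ± 85.2 TPM (log2 fold change 0.26, edgeR adjusted p = 0.842). Of 12 genes of heme synthesis and breakdown, edgeR called 0, and Alas1, the rate-limiting step of heme synthesis, had a log2 fold change of 0.10. Of 10 sensors edgeR called 0, with log2 fold changes of −0.75 for Ahr, 0.05 for Nr1i2 (Pxr), −0.51 for Nr1i3 (Car), −1.05 for Ppara and −0.76 for Rxra. Ghr, the growth hormone receptor, was the 1 of 8 growth hormone and sex pattern regulators that was lower, with a log2 fold change of −3.04 (edgeR, adjusted p = 0.00869).

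Targets of the same sensors were also read outside the family. Of 4 Ahr targets outside the family edgeR called 0, with 3 positive and 1 negative log2 fold changes. Tiparp was at 6.24, 14.0 and 39.5 TPM in A3B livers and at 2.06 and 2.27 TPM in controls, every A3B liver being higher (log2 fold change 2.63, edgeR adjusted p = 0.0651), while Ugt1a6a was at 24.7 to 81.2 TPM against 87.7 and 103 TPM, every A3B liver being lower. Of 9 Ppara targets outside the family 1 was called higher and 1 lower, with 3 positive and 6 negative values and a median of −0.48. Pdk4, a pyruvate dehydrogenase kinase, was the higher one, with a log2 fold change of 5.47 (edgeR, adjusted p = 0.0242). Of 9 markers of pericentral hepatocytes outside the family, where Cyp1a2 and Cyp2e1 are made, 2 were lower, 8 had negative values and the median log2 fold change was −1.62. Rgn was one of those called, with a log2 fold change of −4.49 (edgeR, adjusted p = 0.0148). Of 7 periportal markers edgeR called 0, and their median was 0.48.

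The livers of set 1 are other mice, with their own controls and values scaled separately, and summed P450 RNA was again lower in A3B liver. The log2 fold change was negative in 40 of the tested members and positive in 16. Summed member TPM was 10674, 4650 and 10834 in A3B livers 23, 28 and 70 and 16317, 14157 and 17131 in controls 11, 91 and 92. Among the A3B livers, 28 was the lowest for most members tested. Of 56 members tested, limma on log2(TPM + 1) called 4 lower and 2 higher, while 1.86% of 11507 genes were lower and 6.07% were higher. With quantile normalization it called 6 lower and 1 higher, and the split over all genes turned from 699 higher and 214 lower to 317 higher and 358 lower. In 19 members every A3B liver was below every control, against 10.3% of all genes tested. The median log2 fold change was −1.07 for the members and 0.39 for all genes. The count of 6 fell to 0 without control 91, without control 92 or without A3B liver 23, and it was 8 without 28 and 9 without 70, and limma called 0 members when low values were not filtered out. Over all genes the 699 higher and 214 lower calls became 1 and 0, 7 and 2, and 43 and 12 without control 91, control 92 and A3B liver 23, and 39 and 15 without the filter. Hepatocyte markers summed to 8243 to 11333 TPM in A3B livers and to 9914 to 14238 TPM in controls, and their part was not tested.

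The lower members were Cyp1a2, Cyp2c23, Cyp2d40 and Cyp2r1. Cyp1a2 was at 14.5, 3.26 and 122 TPM in A3B livers 23, 28 and 70 and at 997, 706 and 938 TPM in controls 11, 91 and 92 (log2 fold change −5.44 ± 1.07, limma adjusted p = 0.0354). Cyp2c23 was at 2.28, 2.46 and 20.2 TPM against 146, 101 and 121 TPM (log2 fold change −4.30 ± 0.71, limma adjusted p = 0.0233). For both genes A3B liver 70, taken after 10 days of dox, was the highest of the A3B livers and was still under every control. Cyp2d40 was at 7.88, 14.4 and 6.69 TPM against 91.9, 230 and 260 TPM (log2 fold change −4.13 ± 0.49, limma adjusted p = 0.0130). Cyp2r1 was at 2.25, 4.04 and 3.51 TPM against 9.82, 14.3 and 11.5 TPM (log2 fold change −1.60 ± 0.31, limma adjusted p = 0.0339). In each of the 4 genes the groups were apart.

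The higher members were Cyp4a31 and Cyp2t4. Cyp4a31 was at 47.8, 33.1 and 20.2 TPM in A3B livers and at 5.79, 1.28 and 0.971 TPM in controls (log2 fold change 3.39 ± 0.55, limma adjusted p = 0.0231). Cyp2t4 was at 1.996, 1.68 and 3.81 TPM against 0.199, 0.380 and 0.273 TPM (log2 fold change 1.40 ± 0.33, limma adjusted p = 0.0456), a value that the pseudocount of 1 holds down. Neither gene overlapped between groups, and 28.5% of all genes had every A3B liver above every control. The Cyp2t4 call was lost with quantile normalization and was kept in 1 of 5 fits without 1 library. Cyp4a32 was at 432, 20.5 and 144 TPM against 79.2, 7.02 and 5.45 TPM, where A3B liver 28 was below control 11 (log2 fold change 2.78, limma adjusted p = 0.177).

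Sex-biased members differed between control 11, the liver with Y-linked RNA, and controls 91 and 92. Cyp2c69 was at 1.25 TPM in control 11, at 189 and 195 TPM in controls 91 and 92, and at 18.2, 0.449 and 3.98 TPM in A3B livers. Cyp3a44 was at 0.0667, 171 and 198 TPM in controls and at 21.9, 3.30 and 33.4 TPM in A3B livers. Both were lower in each A3B liver than in controls 91 and 92, but female-biased Cyp2b13 reached 67.8 TPM in A3B liver 70, above their 59.5 and 45.2 TPM. Male-biased members were higher in each A3B liver than in these controls, Cyp2d9 at 631, 142 and 124 TPM against 33.9 and 34.5 TPM and Cyp4a12a at 9.75, 1.45 and 2.60 TPM against 0.0273 and 0.00982 TPM. In control 11 Cyp2d9 was at 2913 TPM and Cyp4a12a at 139.6 TPM. Without control 11, 7 members were called, 1 higher and 6 lower (11.8% and 1.74% of all genes), among them Cyp2c69 (log2 fold change −5.22, limma adjusted p = 0.0366), Cyp2g1 (−2.85, adjusted p = 0.0412) and Cyp2u1 (−1.81, adjusted p = 0.0255), while Cyp1a2 had about the same value without a call (−5.34, adjusted p = 0.0588).

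Of 55 members tested in both liver sets, 46 (83.6%) had the same sign, against 77.3% of 10884 genes, a share near the background. All 11 members called lower in set 2 had negative log2 fold changes in set 1, and 3 were called there. The log2 fold changes of the 55 members correlated with Pearson's r = 0.77 and Spearman's rho = 0.74, across genes that are not independent replicates and over sets that share no mouse, and Pearson's r was 0.75 over all 10884 genes. Cyb5b was lower in this set too (log2 fold change −1.97, limma adjusted p = 0.0223), as were Ghr (−2.24, adjusted p = 0.0414) and Rgn (−4.21, adjusted p = 0.0456). Tiparp was at 24.6 to 94.9 TPM in A3B livers and at 1.81 to 3.23 TPM in controls (log2 fold change 3.75, limma adjusted p = 0.0162), and Pdk4 was also higher (4.67, adjusted p = 0.0327).

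**Figure D3:**
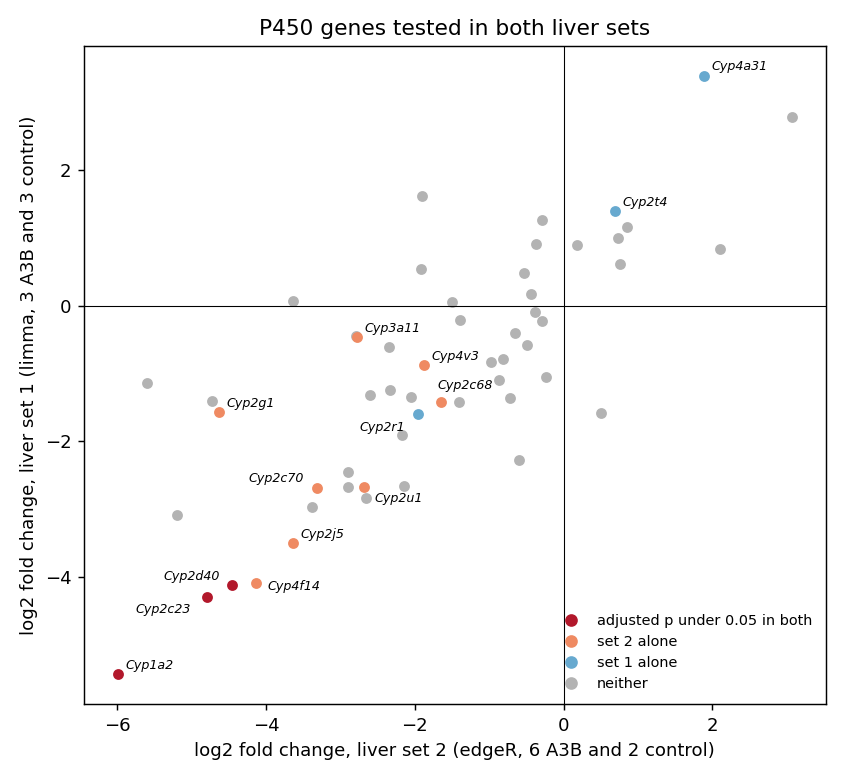
Log2 fold changes (A3B minus control) of the 55 members tested in both liver sets, set 2 by edgeR on the horizontal axis and set 1 by limma on the vertical axis, coloured by the set in which the adjusted p was under 0.05. Most points lie in the lower left, with Cyp1a2 at −5.99 and −5.44, and Cyp4a31 lies in the upper right at 1.89 and 3.39.

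In the pancreas the members were scarce, with a summed level of 158, 216 and 309 TPM in A3B mice and 30.03 and 125 TPM in controls. The composition of these libraries differed, as acinar transcripts filled the control libraries. Acinar markers were lower for 6 of 7, with sums of 62564 to 169166 TPM in A3B mice and 221599 and 237364 TPM in controls, while 5 of 7 macrophage markers and 4 of 5 fibroblast markers were higher. TMM scaling, which corrects for this, gave a median log2 fold change of 0.09 over all genes and library totals gave 2.29, so TPM levels and fitted fold changes can differ in sign here. On the TMM scale edgeR called 3 of 61 members higher and 5 lower, while 17.0% of 19123 genes were higher and 14.9% lower, so the members' shares did not exceed the background. The median log2 fold change was 0.37 for the members. Without A3B pancreas 44, 53 or 137 the count was 5 in each case, and without control 45 it was 12, while calls over all genes were 2814 to 2897 higher and 2464 to 2571 lower in the former fits and 2063 and 1766 in the latter.

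The higher members were Cyp1b1, Cyp2b10 and Cyp2c38. Cyp1b1, a P450 of stromal and other cells outside the liver, was at 10.9, 21.3 and 35.9 TPM in A3B pancreases and at 0.162 and 1.75 TPM in controls (log2 fold change 2.64 ± 0.68, edgeR adjusted p = 0.0169). Cyp2b10, a target of Car, was at 1.77, 7.43 and 15.9 TPM in A3B pancreases and at 0 and 0.0467 TPM in controls, which is 0 and 7 estimated counts (log2 fold change 6.49 ± 1.60, edgeR adjusted p = 0.0157). Cyp2c38 was at 0.403, 2.88 and 9.48 TPM against 0.0347 and 0.0216 TPM, or 8 and 5 estimated counts (log2 fold change 4.74 ± 1.39, edgeR adjusted p = 0.0297). The A3B pancreases were above both controls in TPM for each of the 3 genes, as they were for 70.8% of all genes tested. The calls of Cyp2b10 and Cyp2c38 were lost without either control, and that of Cyp1b1 was kept in all 8 fits without 1 library.

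The lower members were Cyp2c68, Cyp4f14, Cyp2u1, Cyp2s1 and Cyp4f13, with log2 fold changes of −3.30, −2.54, −1.89, −1.46 and −0.65 (edgeR adjusted p of 0.0481, 0.0234, 0.0122, 0.0377 and 0.0490). Their TPM overlapped between groups or was higher in A3B pancreases, as for Cyp4f13 with 12.02, 18.1 and 24.5 TPM against 5.77 and 9.25 TPM, so these calls rest on the scaling. With library totals Cyp2s1 and Cyp4f13 had positive values, 0.44 and 1.65. The calls of Cyp2c68, Cyp2s1 and Cyp4f13 were each lost without A3B pancreas 44, without 53, without 137 or without 153. They were also lost with Y-linked RNA as a covariate. The value of Cyp2c68 rested on control pancreas 168, where it was at 7.28 TPM against 0.157 in control 45, and without that library its log2 fold change was 0.11. The same control held Cyp2d34 at 18.5 TPM, Cyp2c55 at 9.65 and Cyp2d12 at 4.44, whereas each of these was at 0 in control 45 and at no more than 0.115 in any A3B pancreas.

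RNA of hepatocytes was present in several pancreas and lung libraries in unequal amounts. Hepatocyte markers summed to 1243 and 1149 TPM in A3B pancreases 44 and 49, to 488 in 137, to 232 in 153, to 130 in 125 and to 125 in 53, and to 103 and 19.0 TPM in controls 45 and 168. Summed Cyp2c was at 33.4, 32.3, 18.0, 6.16, 5.37 and 3.92 TPM in the same order of A3B pancreases, and at 1.75 and 20.8 TPM in the controls. Except in control 168, pancreases with a higher sum of these markers held more Cyp2c RNA. At the low end Ttr made up most of that sum, at 80.9 TPM in A3B pancreas 53 and 16.6 in control 168. Alb was at 10.4 and 1.19 TPM in these libraries, and whether the low sums stand for hepatocyte RNA was not tested. With the mean log2 level of the hepatocyte markers as a covariate, edgeR called 0 members higher and 9 lower, against 7.31% and 6.90% of all genes, and Cyp1b1 (log2 fold change 3.30, adjusted p = 0.0568), Cyp2b10 (6.88, adjusted p = 0.0663) and Cyp2c38 (2.34, adjusted p = 0.167) were no longer called. Among the regulators Por (log2 fold change 2.40, edgeR adjusted p = 0.00546), Ahr (1.53, adjusted p = 0.00667), Nr1i2 (2.38, adjusted p = 0.0417) and Tiparp (2.35, adjusted p = 0.00335) were higher in A3B pancreas, and Nr1i3 was lower (−1.97, adjusted p = 0.0463).

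**Figure D4:**
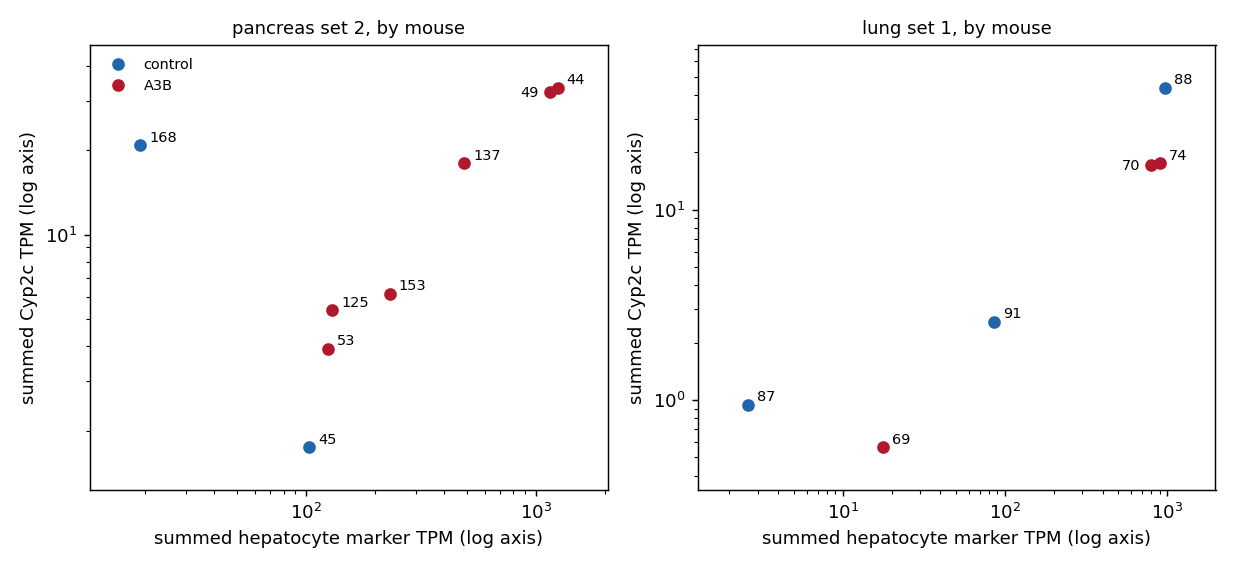
Summed TPM of 15 Cyp2c genes against summed TPM of 7 hepatocyte markers in each pancreas of set 2 (left) and each lung of set 1 (right), both axes logarithmic, with 1 point per mouse, red for A3B and blue for control. A3B pancreases 44 and 49 lie at the top with 33.4 and 32.3 TPM of Cyp2c, control pancreas 168 lies off the trend with 20.8 TPM, and among the lungs the control 88 is highest with 43.6 TPM.

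Whether a member responded otherwise in pancreas than in liver of set 2 was tested as an interaction in edgeR. It was called in 9 of 69 members, 6 with a higher and 3 with a lower value in the pancreas, against 11.9% of all genes. Since most mice gave both tissues, each value is followed by that of the fit with mouse as a block, in which liver 48 and pancreas 53 add nothing to the difference. Cyp4v3 had a difference of 2.75 ± 0.54 on the log2 scale (edgeR adjusted p = 0.00731), and 2.61 with the block (adjusted p = 0.0328). Cyp2c70 had 3.90 ± 1.03 (adjusted p = 0.0245) and 4.31 with the block (adjusted p = 0.0129), and Cyp2c23 had 5.24 ± 1.40 (adjusted p = 0.0267) and 5.62 (adjusted p = 0.0353). Cyp1a2 had 9.83 ± 2.81 (adjusted p = 0.0353) and 9.53 with the block (adjusted p = 0.0310), but its pancreas counts were 4 and 0 in controls and 2 to 480 in A3B mice. These 4 members kept their call with the block. Cyp2c70 was at 6.83 and 7.34 TPM in A3B pancreases 44 and 49, which had the highest hepatocyte marker sums, and at 1.28 to 4.66 in the other A3B pancreases. Cyp2c23 had 11 and 31 estimated counts in the control pancreases. The part of hepatocyte RNA in these differences was not tested.

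Cyp2j5 (4.497 ± 1.21, edgeR adjusted p = 0.0267) and Cyp2b10 (6.13 ± 1.63, adjusted p = 0.0256) lost it with the block, at 4.13 (adjusted p = 0.113) and 4.59 (adjusted p = 0.0990). The 3 lower members Cyp2c55, Cyp2d12 and Cyp2d34 rested on control pancreas 168, with −8.75, −8.997 and −8.85 in the main fit and adjusted p of 0.229, 0.250 and 0.351 with the block. Without control pancreas 168 the count of 9 became 1 (1034 higher and 803 lower over all genes, from 1367 and 1001), and Cyp4v3 with 2.78 (edgeR adjusted p = 0.0288) was the member that remained.

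In the lung of set 1 few P450 genes were called. Summed member TPM was 2034, 2493 and 1874 in A3B lungs 69, 70 and 74 and 1914, 2389 and 1404 in controls 87, 88 and 91, and the groups overlapped. Of 42 members tested, limma called 1 higher and 3 lower, while 16.1% of 13651 genes were higher and 20.8% lower, so fewer members than genes in general were called. Without A3B lung 70 the count of 4 was 2, and calls over all genes were 1384 higher and 1703 lower, from 2191 and 2838. Cyp2f2, the marker P450 of club cells and the most abundant member in each lung, was at 951, 847 and 702 TPM in A3B lungs and at 965, 1086 and 721 TPM in controls (log2 fold change −0.14 ± 0.19, limma adjusted p = 0.583). Cyp4b1 was at 247, 240 and 253 TPM against 232, 261 and 173 TPM (0.17 ± 0.16, adjusted p = 0.417), and Cyp2b10 at 142, 120 and 125 TPM against 122, 106 and 64.0 TPM (0.45 ± 0.24, adjusted p = 0.173). These abundant lung P450s overlapped between groups, while 1 of 3 club cell markers was lower and their sum was 8271 to 8607 TPM in A3B lungs against 9566 to 10075 TPM in controls.

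The called lung members were low in level. Cyp2t4 was at 11.7, 9.47 and 6.95 TPM in A3B lungs 69, 70 and 74 and at 4.49, 2.46 and 2.94 TPM in controls 87, 88 and 91 (log2 fold change 1.27 ± 0.23, limma adjusted p = 0.00883). Cyp2t4 and Cyp2j9 were called in all 6 fits without 1 library, Cyp4f16 in 3 (not without 69, 70 or control 91) and Cyp2j6 in 2 (not without 69, 70, control 87 or control 88). Cyp2j9 was at 1.60, 2.22 and 2.17 TPM against 3.33, 4.41 and 3.96 TPM (−0.71 ± 0.14, limma adjusted p = 0.00995), Cyp2j6 at 3.53, 4.04 and 4.18 TPM against 5.42, 6.22 and 5.09 TPM (−0.42 ± 0.11, limma adjusted p = 0.0260) and Cyp4f16 at 15.1, 13.7 and 16.1 TPM against 18.8, 23.0 and 22.9 TPM (−0.50 ± 0.12, limma adjusted p = 0.0181). None of the 4 overlapped between groups, where 30.6% of all genes lay wholly below and 23.3% wholly above the controls, and all 4 were also called with hepatocyte markers as a covariate. Hepatocyte markers were at 977 TPM in control lung 88, 902 in A3B lung 74 and 795 in A3B lung 70, and at 85.3, 17.6 and 2.61 TPM in lungs 91, 69 and 87, and Cyp1a2 was highest in the same 3 lungs (21.9 TPM in lung 88, 4.95 in 70, 1.60 in 74 and at most 0.778 in the others). Tiparp (log2 fold change 1.40, limma adjusted p = 0.00294) and Pdk4 (3.20, adjusted p = 0.00140) were higher in A3B lung, as in the liver of set 1.

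Limma called the lung and liver responses different in 4 of 58 members, against 10.7% of all genes. With quantile normalization it called 5, and the split over all genes went from 261 higher and 1187 lower to 407 higher and 434 lower. The difference was positive for Cyp2d40 (3.60 ± 0.69, adjusted p = 0.0121), Cyp2c23 (3.54 ± 0.92, adjusted p = 0.0358) and Cyp2r1 (1.30 ± 0.27, adjusted p = 0.0158), which limma called lower in the liver. In the lung Cyp2c23 was tested and not called. Cyp2d40 and Cyp2r1 fell short of the mean of 1 TPM needed for the lung test, with at most 2.25 and 1.03 TPM in any lung. The difference was negative for Cyp4a31 (−2.94 ± 0.61, adjusted p = 0.0164), at 0.378, 0.826 and 1.07 TPM in A3B lungs and at 0.223 to 0.304 TPM in control lungs. With log2(TPM + 0.1) in place of log2(TPM + 1), limma called 0 of the 58 (168 higher and 1033 lower over all genes, from 261 and 1187), while the differences were 3.06 for Cyp2d40, 3.28 for Cyp2c23, 1.24 for Cyp2r1 and −2.82 for Cyp4a31 (adjusted p of 0.168, 0.103, 0.0721 and 0.0640).

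**Figure D5:**
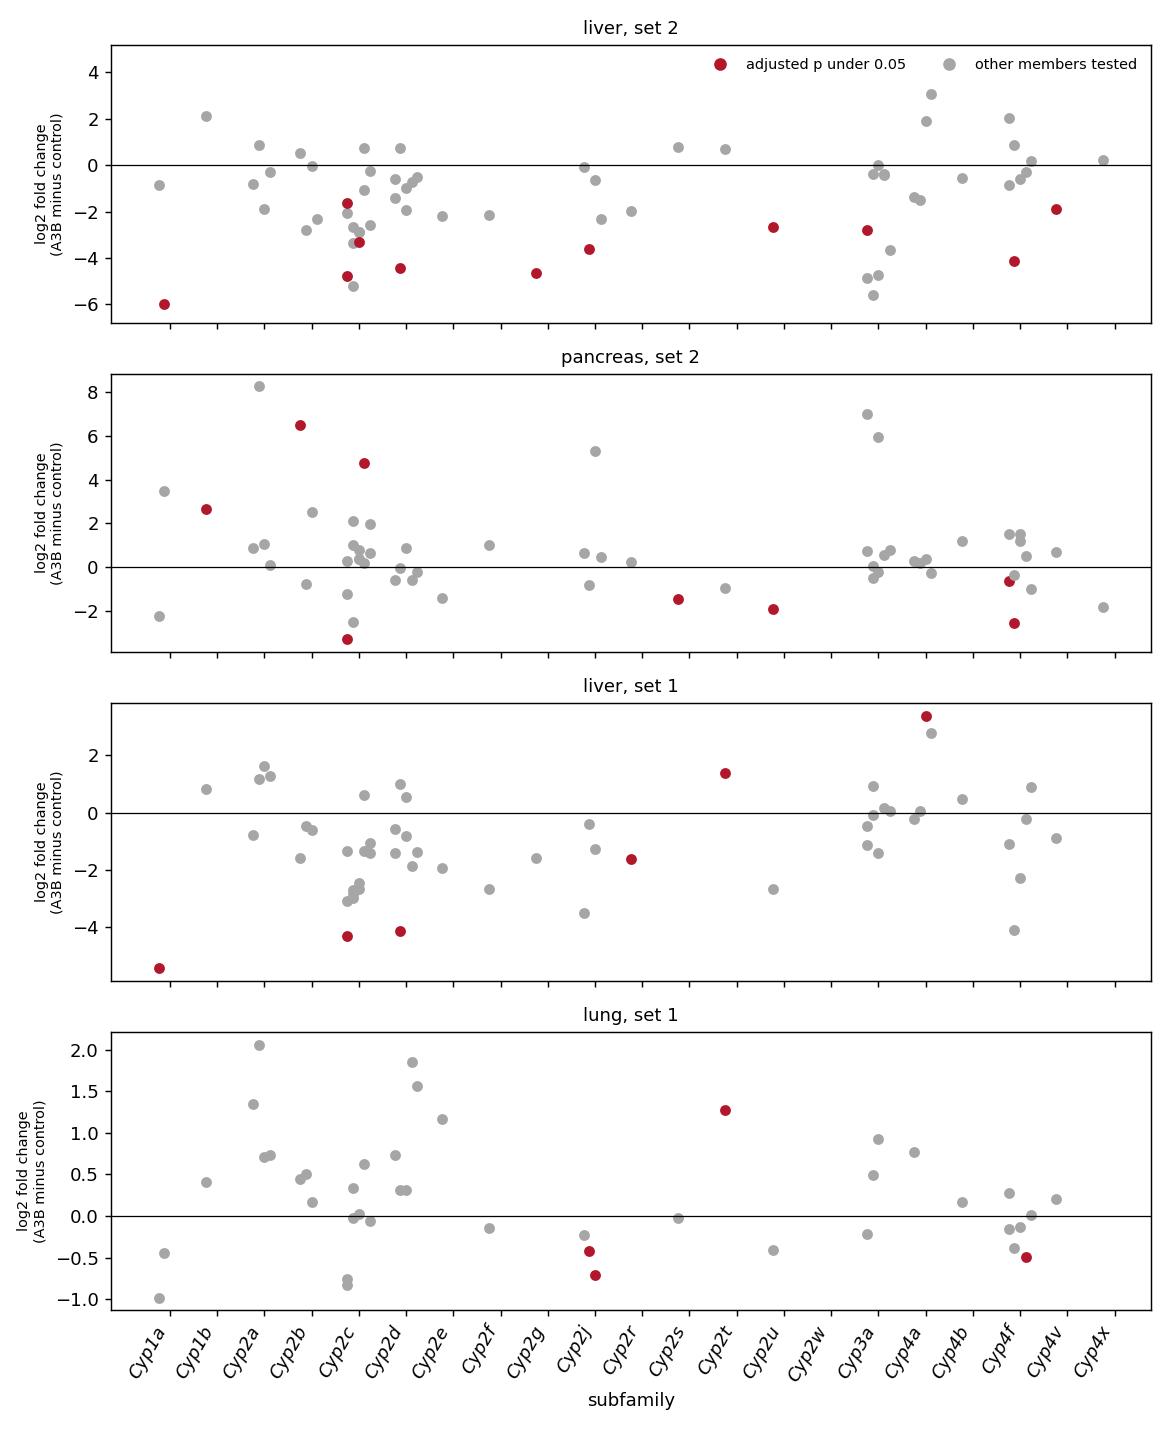
Log2 fold changes (A3B minus control) of every tested member, grouped by subfamily along the horizontal axis, in liver and pancreas of set 2 (edgeR) and liver and lung of set 1 (limma), with members at an adjusted p under 0.05 in red and the others in grey, each panel with its own vertical scale. Both liver panels lie mostly under 0 with medians of −1.22 and −1.07, with Cyp4a31 above 0 in both, while the pancreas and lung panels have medians of 0.37 and 0.19.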

How the data were processed

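RNA-seq libraries (TruSeq Stranded, paired-end) of mouse liver, pancreas and lung were used as processed by the authors. For set 2 the authors deposited kallisto estimated counts and TPM per transcript (mm10). These were summed per gene symbol with GENCODE M21, which matched 116640 of 119414 transcripts, and estimated counts were rounded. For set 1 the deposited TPM per gene were computed by the authors from a read count matrix, and the tables were tested separately. Set 2 was tested with the robust quasi-likelihood test of edgeR 4.0.16 (filterByExpr, TMM), set 1 with limma 3.58.1 on log2(TPM + 1) for genes whose mean reached 1 TPM, each within a tissue, with Benjamini-Hochberg adjustment over all genes tested and a threshold of 0.05. SE for edgeR is the log2 fold change divided by the root of F. P-values of the fits within a tissue measure the spread between mice. The pancreas-liver and lung-liver fits without a block took libraries of the same mouse as independent. The fits were also run on simulated data, which for set 2 held less spread between libraries than the real counts. That check does not show how the fits behave at the real spread.

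Members, lists and tests were chosen with earlier results of these data known, and lists were written from general knowledge. Named were members past the threshold with at least 1 TPM in a group, the most abundant member of each subfamily and sex-biased members. Members named outside this rule, such as Cyp2c50, Cyp2a22, Cyp2c55, Cyp2d12 and Cyp2d34, were chosen after their values were seen. Livers and pancreases are paired by mouse, and the deviations of the 2 tissues correlated by −0.0048 to 0.28 over 7 mice. Hepatocyte markers as a covariate and the fit without control pancreas 168 were chosen after seeing the data. DESeq2 1.42.0, other scalings, filters and left-out mice were alternatives. Sharing of reads was judged from 31-base words of GENCODE transcripts.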

Additional observations from a re-analysis of the deposited data

Results flagged for a closer look

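Of 50 groups of A3B values tested for a single distant sample, 4 were singled out, and chance gives about 1 in 20. In A3B livers of set 2 these were Cyp2r1, with mouse 49 highest at 5.55 TPM, Cyp3a41b, with mouse 44 highest at 8.33 TPM, Cyp4b1, with mouse 48 lowest at 0.826 TPM, and Cyp4f15, with mouse 49 lowest at 20.4 TPM.

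The A3B effect differed between pancreas and liver of set 2 by an interaction test in edgeR, as log2 differences of 9.83 for Cyp1a2, 6.13 for Cyp2b10, 5.24 for Cyp2c23, 3.90 for Cyp2c70, 4.497 for Cyp2j5 and 2.75 for Cyp4v3, and of −8.75 for Cyp2c55, −8.997 for Cyp2d12 and −8.85 for Cyp2d34. With mouse as a block the calls of Cyp2b10, Cyp2j5, Cyp2c55, Cyp2d12 and Cyp2d34 were lost, and without control pancreas 168 all calls but that of Cyp4v3 were lost and the 3 negative values turned positive. Between lung and liver of set 1 it differed in limma by 3.54 for Cyp2c23, 3.60 for Cyp2d40, 1.30 for Cyp2r1 and −2.94 for Cyp4a31, and none of these 4 was called on log2(TPM + 0.1).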

How the results depend on the processing

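With 2 or 3 controls a group, calls depend on single mice. In liver of set 2, the 11 calls became 21 with DESeq2 and 5 to 19 when 1 mouse was left out. In liver of set 1, the 6 calls became 0 without a filter on low values and 0 to 9 without 1 mouse. In lung, the 4 calls became 2 at a mean of at least 5 TPM and 2 to 6 without 1 mouse. In pancreas, the 8 calls (3 higher, 5 lower) became 24 with library totals (24 higher, 0 lower, as 13473 and 210 of all genes), 17 with limma on log2(TPM + 1) (15 higher, 2 lower, as 11401 and 152 of all genes), 5 with the Y-linked covariate and 5 to 12 without 1 mouse. The pancreas-liver difference had 9 calls, 31 with library totals (28 higher, 3 lower, as 7845 and 223 of all genes) and 1 without control pancreas 168, and the lung-liver difference had 4, and 0 with log2(TPM + 0.1).

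Signs changed in the pancreas. With library totals and with limma the log2 fold changes were 2.24 and 1.39 for Cyp2d22, 1.58 and 1.36 for Cyp2j6, 0.44 and 0.39 for Cyp2s1, and 1.65 and 1.11 for Cyp4f13. With the hepatocyte covariate they were −3.57 for Cyp2a12, −1.92 for Cyp2c70 and −5.55 for Cyp3a41a. Without 1 mouse, Cyp2c68 ranged from −4.21 to 0.11, the latter without control 168, and without control pancreas 168 the differences were 4.90 for Cyp2c55, 3.43 for Cyp2d12 and 5.19 for Cyp2d34. The cause was not tested. With mouse as a replicate block the pancreas-liver count was 6, of which 4 were among the 9 (1130 higher and 486 lower over all genes), and the lung-liver count was 5, with all 4 kept (454 and 2153). Over the named members and all settings, 1102 values kept their side of the threshold and their sign (or, if never called, changed sign by less than 1 SE), 116 lost the call, 37 gained it, 23 uncalled values changed sign by more than 1 SE, and 15 changed sign with a call in either fit.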
